A study of Mus musculus with 16 samples.

Results

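Hepatic stellate cells and the myofibroblasts they turn into were followed through 10 genes, Acta2, Tagln, Des, Pdgfra, Pdgfrb, Lrat, Dcn, Lum, Tgfb1 and Rgs5, chosen by symbol from the 47069 genes of the deposited table. RNA came from livers and liver tumours of mice given diethylnitrosamine (DEN), a carcinogen that hepatocytes activate and that induces hepatocellular carcinoma, and sequenced as mRNA. The mice ate a fructose diet or a cornstarch diet, the latter supplying its sugar as a polymer of glucose. The 16 libraries formed 6 groups: liver at 5 months of age (2 libraries on fructose, 3 on cornstarch), liver at 9 months (3 and 3) and tumours at 9 months (3 on fructose, 2 on cornstarch). Every group was DEN-treated, so no comparison here sets DEN against no DEN. Strain, sex, carcinogen dose and time on the diet are not given in the sources used here, nor which libraries are separate mice or which tumour came from which liver. A p-value here is therefore relative to the scatter of these libraries alone, which may be technical in part.

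Quiescent stellate cells lie between hepatocytes and the sinusoidal endothelium and store vitamin A as retinyl esters. After injury they lose that store, proliferate in response to platelet-derived growth factor (PDGF), and turn, under transforming growth factor beta (TGF-beta), into contractile cells that secrete matrix. Portal fibroblasts and the mural cells of vessels (pericytes and smooth muscle) share many of the same genes, so that the 10 together do not mark 1 cell type alone.

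Each of the 10 genes was detected in every library, down to 11 reads for Acta2 in replicate 3 of the 5-month cornstarch livers. Depth ranged from 11232461 to 38377674 reads per library. The 2 fructose livers of 5 months stood apart from the other libraries before any of the 10 genes is considered. Summed over 10 neutrophil markers they held 22165 and 24505 normalised counts, against 59.6 to 168 in the 5-month cornstarch livers and 90.5 to 361 in the livers of 9 months. Their platelet and red cell markers were also higher than in the other livers (190 to 260 against 47.9 to 93.6 for platelet markers, and 15632 to 20835 against 2224 to 5945 for red cell markers). In each 5-month group 1 library had high Xist signal and Y-linked signal at or near 0, unlike all the rest. Skeletal muscle markers, 9 genes of which 5 to 8 were at 0, summed to at most 25.1 in a library. Hepatocyte markers, among them albumin, were abundant in all libraries, tumours included.

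Per kilobase of exon, the median level over the 16 libraries was highest for Dcn (408 normalised counts per kb) and Rgs5 (212). Tagln followed at 83.9, then Lum at 60.1, Lrat at 55.9 and Acta2 at 41.4. The lowest levels were those of Tgfb1 (36.0), Pdgfrb (35.1), Des (20.6) and Pdgfra (10.7). Acta2 varied most between libraries, with its highest normalised count 32.8 times its lowest, and Des least at 3.22 times. Of the 10 genes, 7 reached their highest value in a fructose liver of 5 months (4 in replicate 1 and 3 in replicate 2). None was highest in a cornstarch liver.

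**Figure D1:**
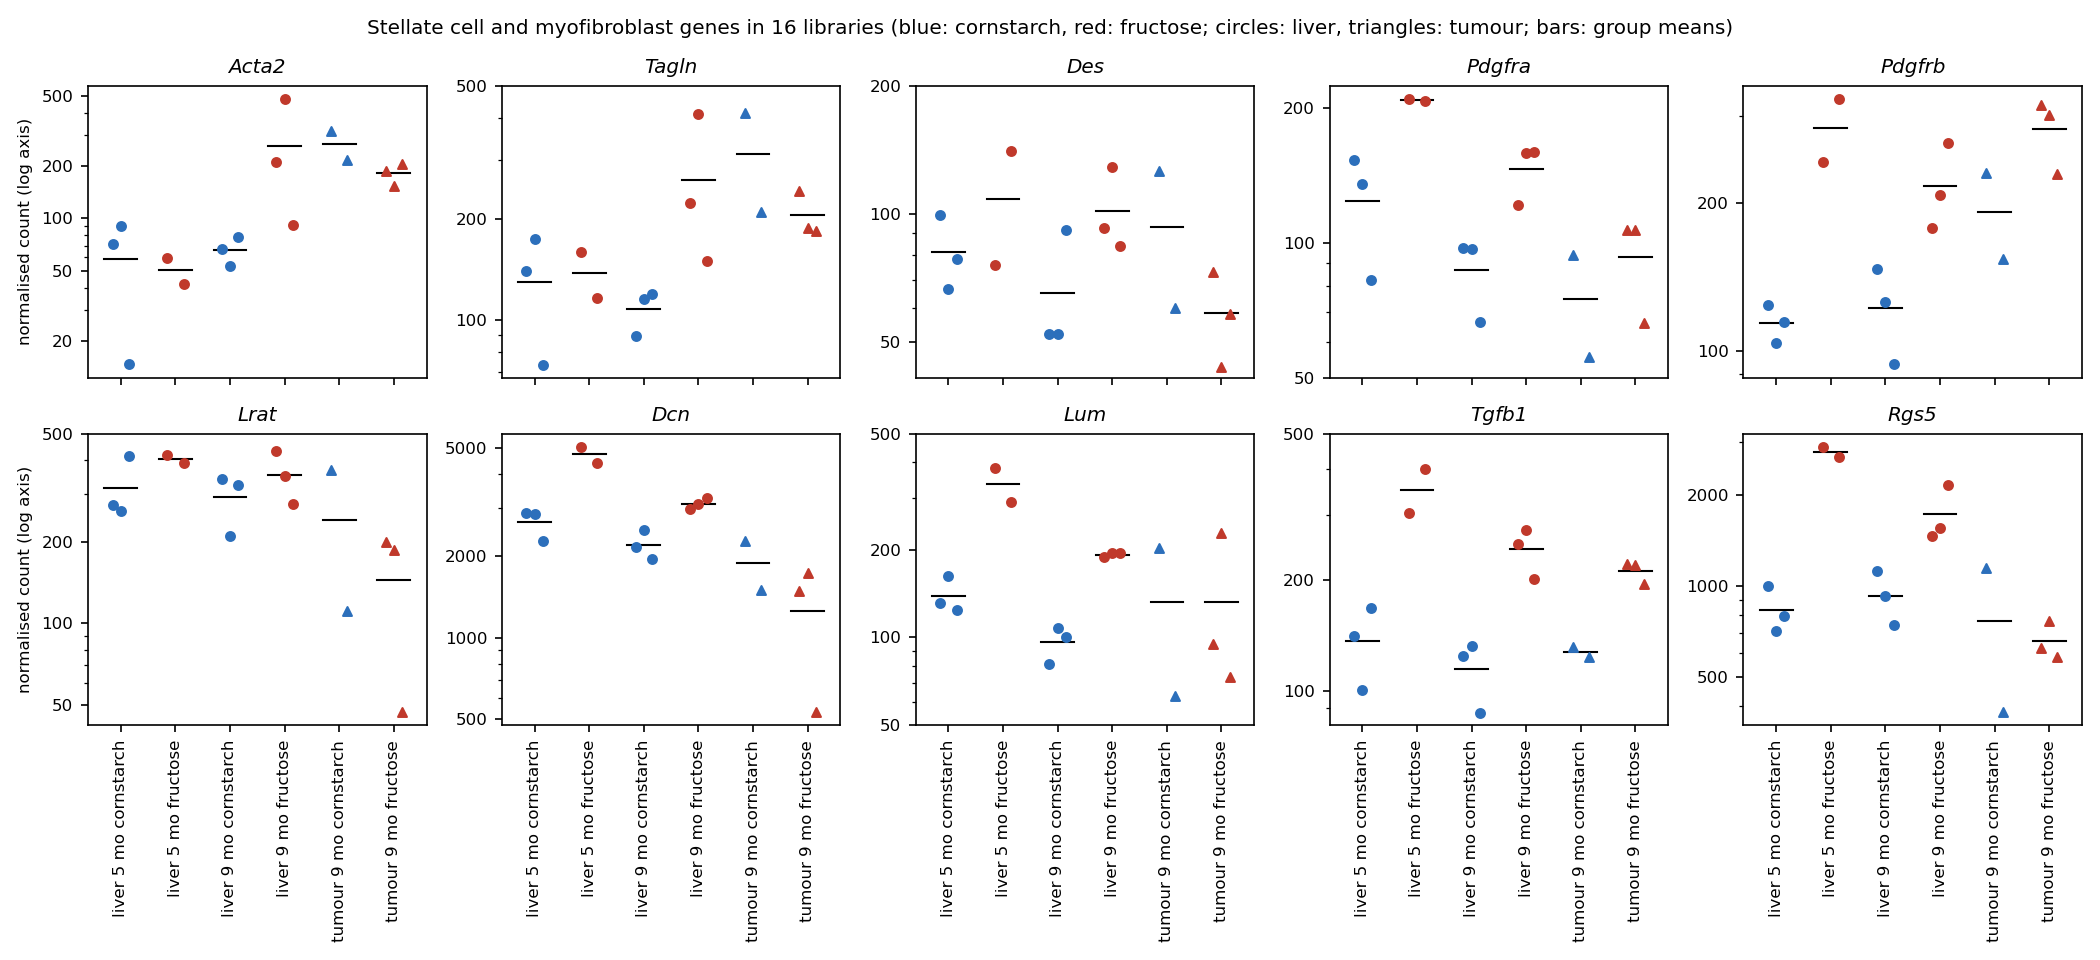
Normalised counts of the 10 genes in each library, on a log axis; each point is 1 library, bars are group means, blue is cornstarch, red is fructose, circles are livers and triangles are tumours. The fructose livers lie above the cornstarch livers of the same age for Pdgfra, Pdgfrb, Dcn, Lum, Tgfb1 and Rgs5. For Acta2, Tagln and Pdgfrb the cornstarch tumours lie above the 9-month cornstarch livers, while the fructose tumours overlap the fructose livers of that age.

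Acta2 encodes smooth muscle alpha-actin, the filament protein by which myofibroblasts are usually recognised (ENSMUSG00000035783, GRCm38, chromosome 19, 34241090 to 34255590, minus strand). Its reads could in part belong to other actins, and the coding sequences were compared. Acta2 and Actg2, the smooth muscle gamma-actin, shared 84.4% of aligned coding bases. The most and least alike stretches of 60 coding bases are shown, with the bases that differ in capitals; the most alike holds 4 such bases and the least alike 16.
Acta2, coding bases 928 to 987: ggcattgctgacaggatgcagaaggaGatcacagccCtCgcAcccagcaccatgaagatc
Actg2, coding bases 925 to 984: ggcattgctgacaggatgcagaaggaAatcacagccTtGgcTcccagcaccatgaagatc
Acta2, coding bases 436 to 495: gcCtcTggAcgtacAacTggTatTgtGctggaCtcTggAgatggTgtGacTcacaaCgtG
Actg2, coding bases 433 to 492: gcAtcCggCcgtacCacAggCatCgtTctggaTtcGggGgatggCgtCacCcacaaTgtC
Of the 1082 stretches of 50 coding bases in Acta2, 7 (0.647%) occurred unchanged in another gene, all 7 in the cytoplasmic actin Actg1 and in actin pseudogenes. None of the 50-base stretches of the other 9 genes did. Most coding stretches of Acta2 were thus not found in other genes, up to the differences that an aligner tolerates. The rest of its 2196 exon bases, which the counts also cover, was not searched.

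The promoters of contractile genes often hold a CArG box, the element bound by serum response factor, and the promoters at hand were searched for it because Acta2 varied most of the 10 genes. RefSeq promoters (GRCm38.p6, 300 bases, 250 before the start and 50 after) were given for 6 of the genes. A 10-base CArG box with at most 1 G or C in its core, a motif that reads alike on both strands, occurred in the promoters of Acta2 (2 matches) and Lrat (1 match), in capitals below. Distances are from the start in the RefSeq table, which for Acta2 lies downstream of the GENCODE start, so that both Acta2 windows fall inside the gene bounds given above.
Acta2, chr19:34255438-34255467, minus strand, match 84 bases upstream of the start: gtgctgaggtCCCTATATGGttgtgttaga
Acta2, chr19:34255388-34255417, minus strand, match 34 bases upstream: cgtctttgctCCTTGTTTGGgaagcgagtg
Lrat, chr3:82904178-82904207, minus strand, match 223 bases upstream: cttctcaccgCCAAGAAAGGtgctccattc
The letters of this motif were not in the windows of Des, Pdgfra, Tgfb1 and Rgs5. Among the 32851 promoters of mouse genes that were searched, 9.98% held such a match and 1.63% a match with no G or C in the core. A match is a run of letters and not a site shown to be bound.

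Fructose was set against cornstarch in liver first, which asks how the stellate and myofibroblast genes differ with the sugar source in DEN-treated liver. Over both ages 6 of the 10 genes rose under fructose, namely Rgs5, Tgfb1, Lum, Pdgfrb, Pdgfra and Dcn, and none fell (limma, adjusted p under 0.05 over 14317 genes). Of all genes tested 13.8% rose by that measure. The 6 were also those whose fructose and cornstarch libraries did not overlap at either age, against 9.07% of all genes. The median difference of the 10 genes was 0.84 on the log2(value + 1) scale and that of all genes -0.01. On this scale the change of weakly expressed genes is understated. In pieces of whole tissue, more cells of a type and more RNA per cell cannot be told apart.

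Tgfb1 encodes the ligand that drives stellate cells to myofibroblasts, and is made by macrophages, platelets and endothelium as well (ENSMUSG00000002603, chromosome 7, 25687002 to 25705077, plus strand). At 9 months it stood at 251, 274 and 202 normalised counts under fructose and at 124, 132 and 87.0 under cornstarch. At 5 months it stood at 305 and 399.8 under fructose and at 141, 101 and 168 under cornstarch. Every fructose liver was above every cornstarch liver at both ages. The rise over both ages was 2.35-fold (log2 1.23, SE 0.17, limma adjusted p = 0.00119).

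Pdgfra and Pdgfrb encode the receptors of PDGF, the beta form being the main one on activated stellate cells and pericytes. Pdgfrb (ENSMUSG00000024620) stood at 178, 207 and 264 normalised counts under fructose at 9 months, and cornstarch livers held 147, 126 and 94.1. The younger livers held 242 and 324 under fructose and 124, 104 and 115 under cornstarch. Neither age showed overlap, and over both ages Pdgfrb rose 2.08-fold (log2 1.06, SE 0.16, limma adjusted p = 0.00149).

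Pdgfra (ENSMUSG00000029231, chromosome 5, 75152292 to 75198215, plus strand) stood at 122, 159 and 159.5 normalised counts under fructose and 97.4, 96.8 and 66.7 under cornstarch at 9 months. At 5 months it stood at 210.0 and 208 under fructose and 154, 136 and 82.6 under cornstarch. The groups did not overlap at either age, but the gap between the lowest fructose and the highest cornstarch liver was narrower than for Pdgfrb at 5 months. The rise over both ages was 1.71-fold (log2 0.78, SE 0.19, limma adjusted p = 0.0146), and the adjusted p was 0.0569 without replicate 2 of the 5-month fructose livers. Of the 5 other genes listed with the PDGF system, 1 rose over both ages, against 13.8% of all genes. That was Pdgfb, which encodes a ligand of both receptors (2.38-fold, limma adjusted p = 0.00291). The count ranged from 0 to 1 over the alternative settings. Pdgfb stood at a mean of 57.2 under fructose and 22.4 under cornstarch at 9 months, and at 43.2 and 18.3 at 5 months.

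Dcn and Lum encode decorin and lumican, small leucine-rich proteoglycans that bind collagen fibrils. They are neighbours on chromosome 10 on the same strand (Dcn, ENSMUSG00000019929, 97479609 to 97518143; Lum, ENSMUSG00000036446, 97565128 to 97572703), 46984 bases apart with no other gene of the table between them, and 51.4% of their aligned coding bases were identical. Dcn stood at 2976, 3107 and 3277 normalised counts under fructose at 9 months and at 2153, 2499 and 1946 under cornstarch. In the livers of 5 months Dcn stood at 5042 and 4414 under fructose and 2884, 2857 and 2261 under cornstarch. Both ages separated without overlap. The rise of Dcn over both ages was 1.59-fold (log2 0.67, SE 0.10, limma adjusted p = 0.00188), and in 1 fit of all 16 libraries the adjusted p was 0.0795.

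Lum stood at 188, 195 and 194 normalised counts under fructose and 81.0, 108 and 100.1 under cornstarch at 9 months. At 5 months it stood at 382 and 291 under fructose and 132, 162 and 124 under cornstarch. The 3 fructose livers of 9 months had a mean of 193 ± 3.65 (SD, n = 3), the smallest SD of any group and gene here apart from Pdgfra in the 5-month fructose livers. Lum rose 2.19-fold over both ages (log2 1.13, SE 0.13, limma adjusted p = 0.000421). Of 7 other tested genes of the proteoglycan family 2 rose, Prelp (2.05-fold, adjusted p = 0.000889) and Bgn (1.80-fold, adjusted p = 0.00102), and 1 fell, Chad (1.87-fold lower, adjusted p = 0.0168), all by limma. Without replicate 2 of the 5-month fructose livers none of the 7 fell, and without replicate 1 of the 5-month cornstarch livers 2 did.

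Rgs5 encodes a regulator of G protein signalling that is typical of pericytes (ENSMUSG00000026678, chromosome 1, 169655501 to 169695813, plus strand). It stood at 1468, 1557 and 2161 normalised counts under fructose at 9 months and at 1119, 927 and 743 under cornstarch. At 5 months the fructose livers held 2883 and 2665 and the cornstarch livers 1000, 707 and 798. The fructose livers were the higher at both ages without overlap. The rise over both ages was 2.49-fold (log2 1.32, SE 0.15, limma adjusted p = 0.000412), the largest of the 10 genes. Of 7 other pericyte genes tested 4 rose and none fell. Kcnj8 and Abcc9, which encode the channel and the regulatory subunit of a potassium channel of mural cells, were 3.11-fold (adjusted p = 0.000475) and 2.35-fold higher (adjusted p = 0.000911), and Mcam, an adhesion molecule, was 2.36-fold higher (adjusted p = 0.00107). The fourth was Ndufa4l2, 2.28-fold higher (adjusted p = 0.00195). Among 6 other genes of the same Rgs subfamily, Rgs2 (4.73-fold, adjusted p = 0.00076) and Rgs4 (3.26-fold, adjusted p = 0.0209) rose and Rgs16 fell (4.16-fold lower, adjusted p = 0.0233). Of these 6 genes 1 rose without either 5-month fructose liver and 4 without replicate 1 of the 9-month cornstarch livers. None fell without replicate 3 of the 9-month fructose livers, replicate 2 of the 5-month fructose livers or replicate 3 of the 5-month cornstarch livers.

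The remaining 4 genes missed the threshold over both ages, by limma. Acta2 stood at 211, 480.4 and 91.5 normalised counts under fructose at 9 months and at 66.5, 53.8 and 78.6 under cornstarch. Those groups did not overlap, but the fructose livers spread widely (261 ± 199, SD, n = 3, against 66.3 ± 12.4, n = 3). At 5 months Acta2 held 59.8 and 42.3 under fructose, within the range of 71.6, 90.4 and 14.6 under cornstarch. Its difference over both ages was 0.90 (log2, SE 0.51, adjusted p = 0.229).

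Tagln encodes transgelin, an actin-binding protein of smooth muscle and myofibroblasts (ENSMUSG00000032085, chromosome 9, 45929619 to 45936058, minus strand). Its bounds overlap those of Pcsk7 on the opposite strand, and the strandedness of the counting is not given in the sources used here. Reads of any exon bases that the pair shares therefore cannot be told apart, and the extent of such bases was not measured. Tagln stood at 224, 413 and 149.6 normalised counts under fructose at 9 months and at 89.7, 115 and 119 under cornstarch. The diets did not overlap, and replicate 2 of the fructose livers was highest, as for Acta2. The livers of 5 months held 159 and 117 under fructose and 140.3, 175 and 73.2 under cornstarch, which overlapped. The difference over both ages was 0.66 (log2, adjusted p = 0.127).

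Des encodes desmin, the muscle intermediate filament that rodent stellate cells also carry (ENSMUSG00000026208, chromosome 1, 75360329 to 75368579, plus strand). Its libraries overlapped between the diets at both ages, with 84.3 to 129 normalised counts under fructose and 52.1 to 91.7 under cornstarch at 9 months (log2 difference over both ages 0.51, limma adjusted p = 0.138). Lrat encodes lecithin retinol acyltransferase, which makes the retinyl esters that quiescent stellate cells store (ENSMUSG00000028003, chromosome 3, 82892579 to 82903973, minus strand). It stood at 433, 348 and 275 under fructose and 340.4, 211 and 323 under cornstarch at 9 months, and at 417 and 388 against 274, 259 and 413 at 5 months. Lrat overlapped between the diets at both ages and differed by 0.33 (log2, 95% interval -0.07 to 0.73, limma adjusted p = 0.214), the smallest difference of the 10 genes.

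At 9 months alone the neutrophil markers summed to 289 to 361 under fructose and 90.5 to 172 under cornstarch, without overlap, and 1 of the 10 rose by limma. At that age all 10 stellate and myofibroblast genes had higher means under fructose, and 8 did not overlap, against 12.9% of all genes. By limma 3 of the 10 rose, Lum (log2 1.003, adjusted p = 0.0243), Tgfb1 (1.09, adjusted p = 0.0421) and Rgs5 (0.89, adjusted p = 0.0444), against 2.32% of all genes. None of the 3 passed without any 1 of the 3 fructose livers, nor without replicate 3 of the cornstarch livers, while DESeq2 on the recovered reads called 7 of the 10. The differences of the other 7 were 1.67 for Acta2 (adjusted p = 0.199), 1.16 for Tagln (adjusted p = 0.135), 0.82 for Pdgfrb (adjusted p = 0.0697), 0.76 for Pdgfra (adjusted p = 0.130), 0.66 for Des (adjusted p = 0.254), 0.51 for Dcn (adjusted p = 0.0827) and 0.28 for Lrat (adjusted p = 0.550).

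At 5 months alone 5 of the 10 rose by limma, against 10.3% of all genes. They were Rgs5 (log2 1.75, adjusted p = 0.000958), Tgfb1 (1.38, adjusted p = 0.00654), Pdgfrb (1.29, adjusted p = 0.00535), Lum (1.26, adjusted p = 0.0022) and Dcn (0.83, adjusted p = 0.00628). Pdgfra differed by 0.80 (adjusted p = 0.0787), and it and those 5 did not overlap between the diets, against 27.1% of all genes. Without replicate 2 of the 5-month fructose livers 3 rose, and likewise without the 2 libraries with Xist signal. In the test of the difference between the ages no member passed by limma (0.698% of all genes did), and 1 had an unadjusted p under 0.05. That was Rgs5, whose rise was 0.85 smaller at 9 months on the log2 scale (95% interval -1.50 to -0.20, unadjusted p = 0.015, adjusted p = 0.289). edgeR and DESeq2 called no member there either. For Acta2 the difference at 9 months exceeded that at 5 months by 1.54, with a 95% interval from -0.70 to 3.78 (adjusted p = 0.628).

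**Figure D2:**
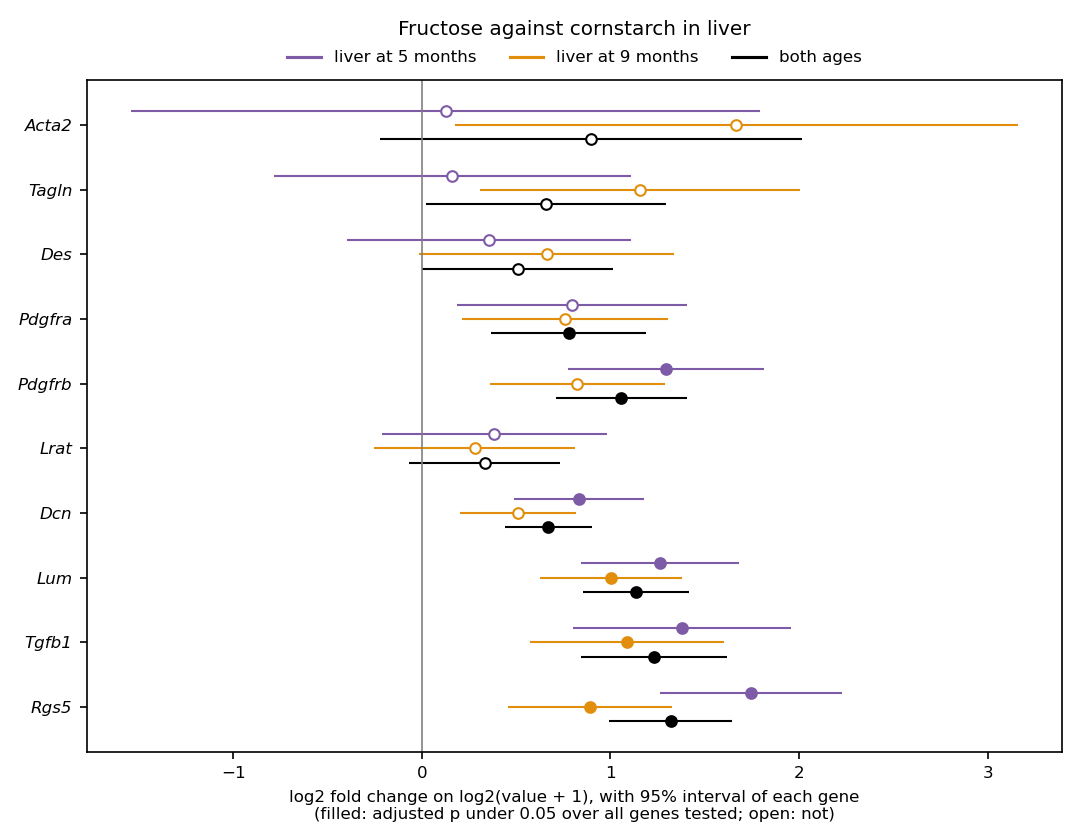
Log2 fold change of fructose over cornstarch in liver for each of the 10 genes at each age and over the ages combined, on log2(value + 1), with the 95% interval of each gene; filled points passed an adjusted p of 0.05 and open points did not. Over both ages the filled points are Pdgfra, Pdgfrb, Dcn, Lum, Tgfb1 and Rgs5, and the intervals of Acta2 are the widest.

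Markers of other cell types moved with the diet as well. Of 10 macrophage markers 9 rose over both ages by limma. Their sum was 11311 to 17113 normalised counts under fructose and 2660 to 6581 under cornstarch at 9 months, and 15267 to 16563 against 6006 to 10208 at 5 months. Of 10 sinusoidal endothelial markers 6 rose, with sums of 8927 to 12849 against 3151 to 7108 at 9 months and 10527 to 12163 against 5419 to 9045 at 5 months. None of the macrophage and endothelial markers was at 0 in any library. Mesothelial markers summed to at most 108 in a library. The share of reads from mitochondrial genes was 4.68% to 6.23% under fructose and 5.26% to 7.73% under cornstarch at 9 months, and 2.93% to 3.49% against 5.00% to 5.83% at 5 months. The part of these cells and of the mitochondrial share in the differences of Tgfb1, Rgs5 and the other genes was not tested. Nor was that of the neutrophil, platelet and red cell signal.

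Genes that surround the 10 in known pathways were read from lists, of which genes among the 3 with the smallest p are named; any further gene was named after its values were seen. Of 15 tested genes of fibroblast activation and matrix assembly 12 rose under fructose over both ages and none fell. The 3 with the smallest p were S100a6, a calcium-binding protein (5.17-fold, adjusted p = 0.000128), Vim, the filament protein vimentin (3.35-fold, adjusted p = 0.000164), and Col3a1, a fibrillar collagen (3.45-fold, adjusted p = 0.000164). Col3a1 stood at a mean of 975 normalised counts under fructose and 351 under cornstarch at 9 months, and at 1226 and 274 at 5 months. The part of the macrophage, endothelial and neutrophil signal in the rises of this list was not tested. At 9 months alone 8 of the 15 rose and at 5 months alone 9. The count of 8 was 0 without replicate 1 or replicate 3 of the 9-month fructose livers, 1 without their replicate 2 or without replicate 3 of the cornstarch livers, and 5 without replicate 2 of the cornstarch livers. It was 2 when the 5-month libraries with Xist signal were left out of the fit.

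Of 25 tested genes of the TGF-beta pathway other than Tgfb1, 11 rose over both ages and none fell. They included Tgfbi, a matrix protein induced by TGF-beta (2.16-fold, adjusted p = 0.000121), and Ltbp1, which holds latent TGF-beta in the matrix (2.42-fold, adjusted p = 0.00253). Tgfbi stood at a mean of 1125 normalised counts under fructose and 626.5 under cornstarch at 9 months, and at 2142 and 820.2 at 5 months.

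Of 17 tested contractile genes other than Acta2, Tagln and Des, 5 rose, Flna (3.31-fold, adjusted p = 0.000372), Cnn2 (2.74-fold, adjusted p = 0.000558), Csrp1 (2.39-fold, adjusted p = 0.00164), Mrtfa (1.78-fold, adjusted p = 0.00308) and Tpm1 (1.33-fold, adjusted p = 0.0179). None fell, and 1 did without replicate 2 of the 9-month fructose livers or replicate 1 of the 9-month cornstarch livers. Of these Flna, which encodes filamin A, and Cnn2, a calponin, are also expressed outside smooth muscle. The smooth muscle genes Myl9 (adjusted p = 0.124), Cnn1 (adjusted p = 0.191) and Actg2 (adjusted p = 0.258) did not pass, like Acta2 and Tagln.

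Of 19 tested genes of quiescence and retinoid handling other than Lrat, 4 rose and 3 fell over both ages. Of all 14317 genes tested 13.8% rose and 1089 fell. Colec11, a collectin, was 1.60-fold higher (adjusted p = 0.00556), and Dhrs3 and Rdh10, which interconvert retinal and retinol, were 1.30-fold (adjusted p = 0.0195) and 1.34-fold lower (adjusted p = 0.0234). Others were Cygb (adjusted p = 0.0271) and Gfap (adjusted p = 0.0362), both higher, and Rbp4 (adjusted p = 0.0404), lower, a plasma retinol carrier that hepatocytes make. The count of genes that rose was 1 without replicate 1 of the 9-month fructose livers, either 5-month fructose liver, or replicate 2 or 3 of the 5-month cornstarch livers. It was 2 without replicate 3 of the 9-month fructose livers or replicate 2 of the 9-month cornstarch livers. The count that fell was 0 without replicate 2 of the 5-month fructose livers, and 1 without replicate 2 or 3 of the 5-month cornstarch livers or without both libraries with Xist signal. Of 9 portal fibroblast genes 3 rose, Pi16 (8.78-fold, adjusted p = 0.000181), Cd34 (2.98-fold, adjusted p = 0.00665) and Fbln2 (2.02-fold, adjusted p = 0.0337), and Gas1 fell (2.54-fold lower, adjusted p = 0.00355).

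Age was compared next, 9 against 5 months, as the mean of the differences within each diet. By limma 1 of the 10 genes fell, Lum, 1.58-fold lower at 9 months (log2 -0.66, SE 0.13, adjusted p = 0.0264), against 2% of all genes. It was lower without overlap within both diets, against 2.97% of all genes. The call was lost, with adjusted p from 0.0507 to 0.124, on leaving out any 1 of the 5 fructose livers or replicate 1 or 2 of the 5-month cornstarch livers. With age 9 of the 10 neutrophil markers and 1 of the 10 macrophage markers also fell, and their part in the result was not tested. Each 5-month group held 1 library with high Xist signal, and no liver of 9 months was of that kind. The one on fructose, replicate 1, held the highest Lum of all libraries, 382. Within the cornstarch livers Lum stood at 124 to 162 at 5 months and 81.0 to 108 at 9 months. There the neutrophil markers summed to 59.6 to 168 at 5 months and 90.5 to 172 at 9 months. The macrophage markers summed to 6006 to 10208 and 2660 to 6581. Dcn came nearest to the threshold of the rest (log2 -0.44, adjusted p = 0.0543), followed by Pdgfra (-0.50, adjusted p = 0.155) and Acta2, which was higher at 9 months (1.27, adjusted p = 0.177).

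Tumours were then set against the livers of 9 months, which asks how far the same genes are carried into the tumour tissue. Over both diets 2 of the 10 genes fell, Dcn and Rgs5, and none rose (limma, adjusted p under 0.05 over 14503 genes). Of all genes tested 10.5% fell by that measure. Neither of the 2 was free of overlap within both diets. Dcn stood at 1486, 1738 and 532 normalised counts in the fructose tumours and at 2268 and 1493 in the cornstarch tumours, against 2976 to 3277 and 1946 to 2499 in the livers on the same diets. Every fructose tumour was below every fructose liver, while 1 of the 2 cornstarch tumours lay inside the range of the cornstarch livers. Dcn was 1.83-fold lower over both diets (log2 -0.87, SE 0.28, limma adjusted p = 0.0451). The adjusted p of Dcn was 0.0509 to 0.193 without any 1 of the 6 livers or of the 2 cornstarch tumours.

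Rgs5 stood at 625, 766 and 580.2 normalised counts in the fructose tumours and at 1148 and 383 in the cornstarch tumours. The fructose tumours were below their livers (1468 to 2161), and the cornstarch tumours lay on both sides of theirs (743 to 1119). Over both diets Rgs5 was 1.90-fold lower (log2 -0.92, SE 0.26, limma adjusted p = 0.0264), and the log2 difference was -0.53 without replicate 2 of the cornstarch tumours (adjusted p = 0.0945). The adjusted p was 0.0527 to 0.0609 without replicate 3 of the fructose livers or replicate 1 or 2 of the cornstarch livers. Of 8 other pericyte genes tested, 4 rose and none fell, Mcam (1.80-fold, adjusted p = 0.00509), Kcnj8 (3.12-fold, adjusted p = 0.0135), Notch3 (2.07-fold, adjusted p = 0.0147) and Anpep (1.59-fold, adjusted p = 0.0153). Without replicate 2 of the cornstarch tumours 1 of these 8 rose, and without replicate 3 of the cornstarch livers 1 fell.

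Within the fructose diet 5 of the 10 genes were lower in every tumour than in every liver, Des, Pdgfra, Lrat, Dcn and Rgs5, against 16.8% of all genes. Of these Dcn (2.80-fold lower, limma adjusted p = 0.0312) and Rgs5 (2.61-fold lower, adjusted p = 0.0312) fell, against 4.46% of all genes. No member passed without any 1 of the 3 fructose livers, and Rgs5 did not without any 1 of the 3 fructose tumours. Lrat stood at 200.0, 186 and 47.0 in the fructose tumours, below the 275 to 433 of the fructose livers (log2 -1.51, adjusted p = 0.112). Pdgfra stood at 107, 107 and 66.1 there, below 122 to 159.5 (log2 -0.67, adjusted p = 0.152). Des stood at 73.0, 43.7 and 58.3, below 84.3 to 129 (log2 -0.80, adjusted p = 0.165). Tumour replicate 3 of the fructose diet held the lowest value of all 16 libraries for Lrat and Dcn. Its red cell markers summed to 11548, against 2075 and 3194 in the other fructose tumours. Its endothelial markers summed to 3703, against 8156 and 8476. The part of these in its levels was not tested.

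Within the cornstarch diet 3 of the 10 genes were higher in both tumours than in every liver, Acta2, Tagln and Pdgfrb, against 21.8% of all genes. By limma none of the 10 passed (5.71% of all genes did in either direction), and 3 had an unadjusted p under 0.05; edgeR called none and DESeq2 called Acta2 and Tagln. Without replicate 1 of the cornstarch tumours 1 of the 10 passed, Rgs5, which was then lower in the remaining tumour. Acta2 stood at 318 and 216 normalised counts in the cornstarch tumours, against 53.8 to 78.6 in the cornstarch livers (log2 1.98, 95% interval 0.82 to 3.15, adjusted p = 0.0547). Tagln stood at 416 and 210.4, against 89.7 to 119 (log2 1.46, adjusted p = 0.0600). Pdgfrb stood at 229.7 and 154, against 94.1 to 147 (log2 0.64, adjusted p = 0.183). For all 3 genes replicate 1 of the cornstarch tumours was the higher of the pair.

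In the fructose tumours Acta2 stood at 186, 154 and 204, inside the range of the fructose livers, and Tagln stood at 243, 189 and 184, also inside. No member passed a test of whether the tumour difference depended on the diet, and no gene of the table did (limma, 0% of all genes, adjusted p = 1.0 for each of the 10). At an unadjusted p under 0.05 there were 424 genes of 14503. Among them were Acta2 (log2 difference between the diets -2.21), Tagln (-1.69), Des (-1.26) and Dcn (-1.24), in all 4 of which the tumours lay lower relative to liver under fructose than under cornstarch. edgeR and DESeq2 called no gene there. The tumour comparisons of the 2 diets share no libraries, and that test sets them against each other. Of the 8 tumour differences that did not pass over both diets, the 5 with the smallest p were 0.88 for Acta2 (log2, adjusted p = 0.0961), 0.61 for Tagln (adjusted p = 0.123), 0.51 for Pdgfrb (adjusted p = 0.0621), -0.46 for Pdgfra (adjusted p = 0.139) and -1.002 for Lrat (adjusted p = 0.108).

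**Figure D3:**
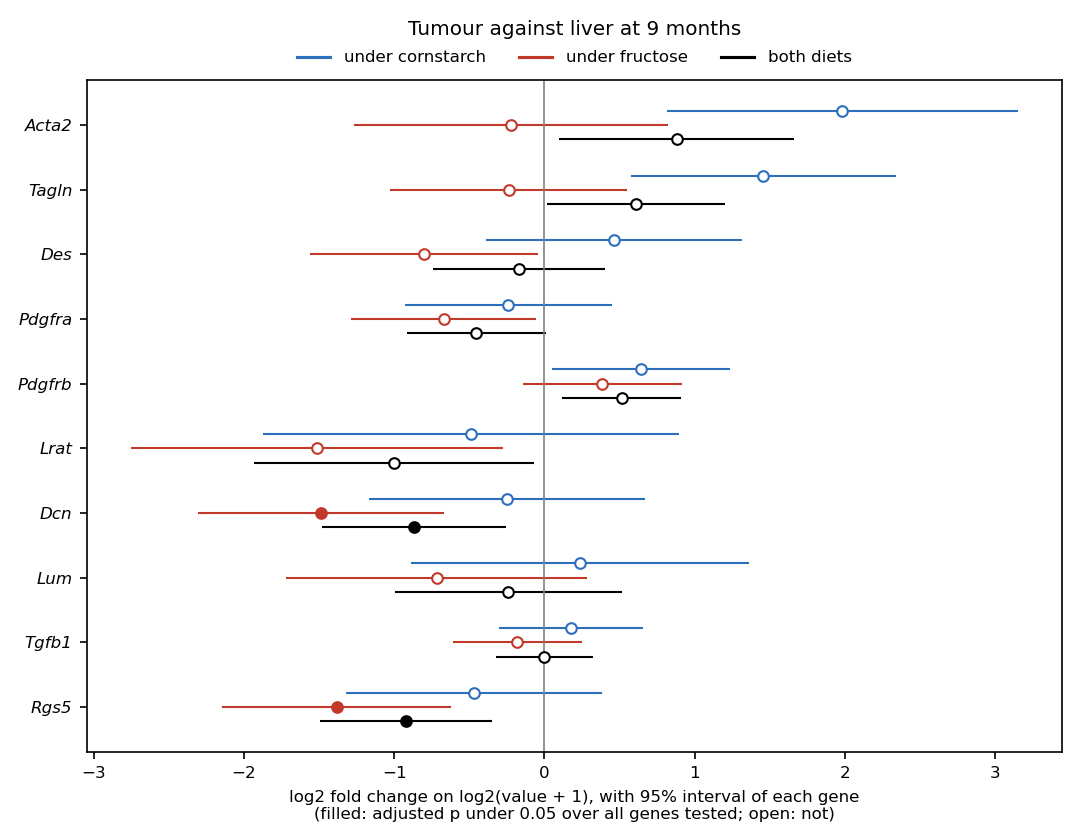
Log2 fold change of tumour over liver at 9 months for each of the 10 genes under cornstarch, under fructose and over both diets, on log2(value + 1), with the 95% interval of each gene; filled points passed an adjusted p of 0.05 and open points did not. Dcn and Rgs5 are filled and to the left under fructose and over both diets, and Acta2 and Tagln lie farther to the right under cornstarch than under fructose.

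Between the diets within tumours none of the 14503 genes passed by limma (0%), with 1178 at an unadjusted p under 0.05; edgeR called none and DESeq2 called 107, no member among them. Of the 10 genes Tgfb1 came nearest. It stood at 222, 220.1 and 195 normalised counts in the fructose tumours and at 131 and 124 in the cornstarch tumours, without overlap (log2 0.73, 95% interval 0.25 to 1.21, unadjusted p = 0.00681, adjusted p = 0.450). The order was that of the livers at both ages. Acta2 went the other way, with both cornstarch tumours above the 3 fructose tumours (log2 -0.54, adjusted p = 0.818). Of all genes 10.9% were higher and 12.5% lower without overlap in the fructose tumours. Pdgfrb overlapped (log2 0.57, adjusted p = 0.617).

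Macrophage markers summed to 3718 to 8128 in the fructose tumours and 3191 to 3708 in the cornstarch tumours, against 11311 to 17113 in the fructose and 2660 to 6581 in the cornstarch livers of 9 months. The fructose tumours were below their livers, and both cornstarch tumours lay inside the range of theirs. Of the 10 markers 3 fell in tumours over both diets and none rose. Endothelial markers summed to 3703 to 8476 and 4071 to 6651 in the tumours, and 1 of 10 fell. The mitochondrial share of reads was 2.54% to 3.02% in the fructose tumours and 2.57% to 4.29% in the cornstarch tumours, below the livers of 9 months. The part of these in the levels of Dcn, Rgs5 and Tgfb1 was not tested.

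Ratios between the 10 genes, taken within a library from counts per kb, do not depend on the scaling of that library. The ratio of Pdgfrb to Pdgfra was 4.46 to 6.33 in the 5 tumours and 1.40 to 3.03 in the 11 livers. No tumour overlapped any liver, on either diet and at either age. This ratio was picked out after its values were seen and is given as a description, with no test. The ratio of Acta2 to Lrat, the contractile against the vitamin A storage gene, was 2.01 to 10.6 in the tumours. The highest was that of replicate 3 of the fructose tumours, and the next was 4.73 in replicate 2 of the cornstarch tumours. In the livers this ratio was 0.811 to 3.36 under fructose and 0.476 to 0.623 under cornstarch at 9 months, and 0.0865 to 0.851 at 5 months. The fructose livers of 9 months lay above the cornstarch livers of that age. Replicate 2 of them (3.36) lay within the range of the tumours, while replicates 1 and 3 (1.19 and 0.811) lay below every tumour.

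**Figure D4:**
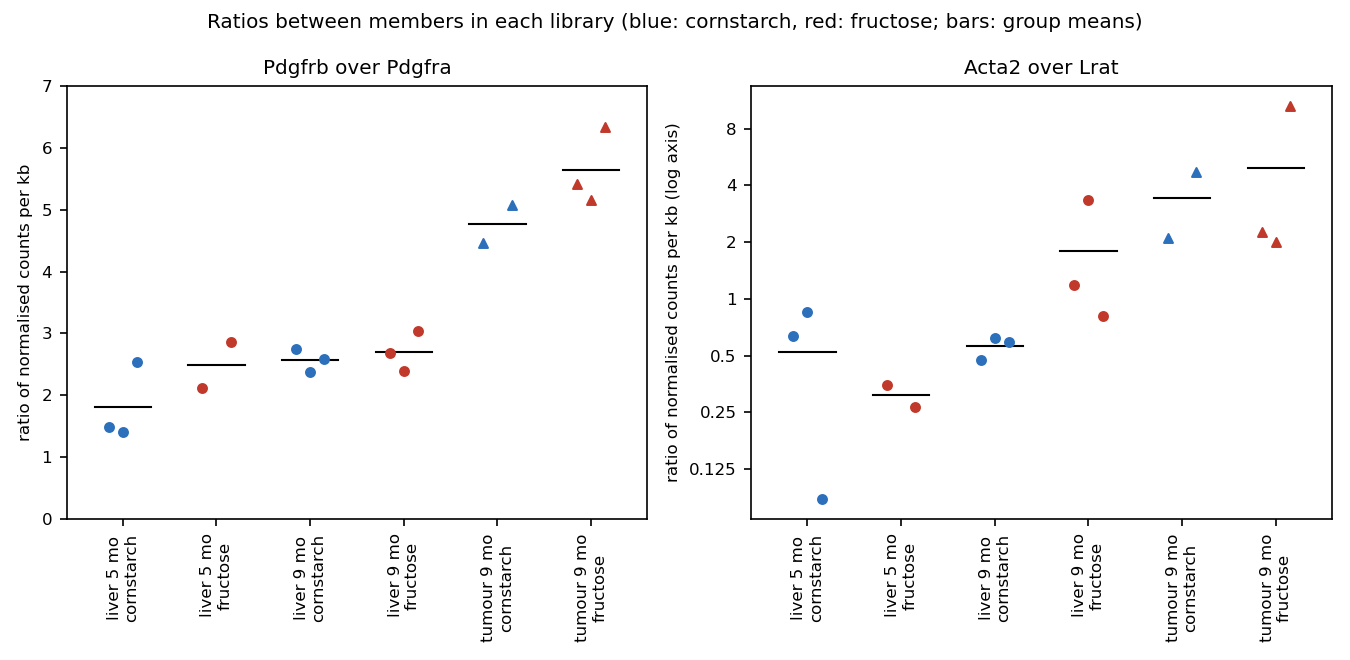
Ratio of Pdgfrb to Pdgfra (left, linear axis) and of Acta2 to Lrat (right, log axis) in normalised counts per kb, 1 point per library, with bars at group means. All 5 tumours have a Pdgfrb to Pdgfra ratio of at least 4.46 and all 11 livers one of at most 3.03.

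The lists around the 10 genes were read in tumours by limma over both diets, where 13.4% of all genes rose and 10.5% fell. Of 15 genes of fibroblast activation 8 rose and none fell, among them Spp1, the secreted matrix protein osteopontin (4.61-fold, adjusted p = 0.00299), Sparc, a collagen chaperone (1.68-fold, adjusted p = 0.00328), and Vim (1.48-fold, adjusted p = 0.0214). Spp1 is also a bile duct marker. The 6 bile duct markers, Spp1 included, summed to 1998 to 9974 normalised counts in tumours and 832 to 1590 in 9-month livers. The means of their log2(value + 1) overlapped, at 4.39 to 6.17 in the tumours and 3.82 to 5.70 in those livers. The count of 8 was 2 without replicate 1 of the cornstarch tumours, 3 without replicate 2 or replicate 3 of the fructose livers, and 4 without replicate 2 of the cornstarch livers. The collagen genes Col1a1 (2.70-fold, adjusted p = 0.0402), Col1a2 (1.89-fold, adjusted p = 0.0405) and Col3a1 (1.91-fold, adjusted p = 0.0226) rose while Dcn fell.

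In the TGF-beta pathway 7 of 25 genes rose in tumours and none fell. Without replicate 1 of the fructose tumours 3 fell, and without replicate 2 of them 1 did. The 3 with the smallest p were Tgfb2, a second ligand (4.12-fold, adjusted p = 0.00154), Tgfbr2, the receptor that binds the ligand (2.72-fold, adjusted p = 0.00156), and Tgif1, a corepressor (2.19-fold, adjusted p = 0.00317). Tgfb2 stood at a mean of 54.7 in the fructose and 46.7 in the cornstarch tumours, against 20.8 and 6.67 in the livers on those diets. Tgfb1 itself had levels in tumours inside the range of the livers on the same diet for 2 of the 3 fructose tumours and both cornstarch tumours. Of the PDGF genes, Pdgfb (2.18-fold, adjusted p = 0.00344) and Pdgfa (2.17-fold, adjusted p = 0.0088) rose, while the receptors Pdgfra and Pdgfrb did not pass. Without replicate 2 of the cornstarch tumours 1 of the PDGF genes rose.

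Of 18 tested genes of quiescence and retinoid handling 7 fell in tumours and 2 rose. Among those that rose was Reln, which encodes the secreted glycoprotein reelin (5.05-fold, adjusted p = 0.00337). Of those that fell, Dhrs3 had the smallest p (1.48-fold lower, adjusted p = 0.0127), and the largest fall was that of Cyp26a1, which degrades retinoic acid (4.04-fold lower, adjusted p = 0.034). The other 5 were Vipr1, Ngfr, Ecm1, Lhx2 and Colec11, 1.55-fold to 2.60-fold lower. Without replicate 2 of the cornstarch tumours none of the 18 fell, and 4 did without replicate 2 of the fructose livers or replicate 1 of the cornstarch livers. Lrat, with its values spread from 47.0 to 368 in tumours, did not pass.

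Of 17 contractile genes 3 rose, a share near the 13.4% of all genes, namely Tpm1 (2.91-fold, adjusted p = 5.26e-05), Smtn (1.90-fold, adjusted p = 0.00727) and Vcl (1.44-fold, adjusted p = 0.035), and Tpm2 fell (2.16-fold lower, adjusted p = 0.0353). None fell without replicate 1 or 2 of the fructose livers, replicate 3 of the cornstarch livers, replicate 1 or 2 of the fructose tumours, or replicate 2 of the cornstarch tumours. In the proteoglycan family of Dcn and Lum 2 of 7 others fell, Omd (3.35-fold lower, adjusted p = 0.0131) and Fmod (2.96-fold lower, adjusted p = 0.0441), and none rose. The count of 2 was 0 without replicate 2 of the cornstarch tumours. It was 1 without replicate 1 or 2 of the fructose livers, any cornstarch liver, or replicate 2 or 3 of the fructose tumours. Of 9 portal fibroblast genes Entpd2 (3.53-fold, adjusted p = 0.000205) and Cd34 (2.72-fold, adjusted p = 0.00146) rose and Gas1 fell (8.37-fold lower, adjusted p = 0.000574). Gas1 stood at a mean of 9.39 in the fructose tumours and 80.3 in the cornstarch tumours, against 175 and 270.5 in the livers. None of the 6 other Rgs genes tested passed, and 1 rose without replicate 2 of the fructose livers, replicate 1 of the cornstarch livers or replicate 1 of the cornstarch tumours.

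**Figure D5:**
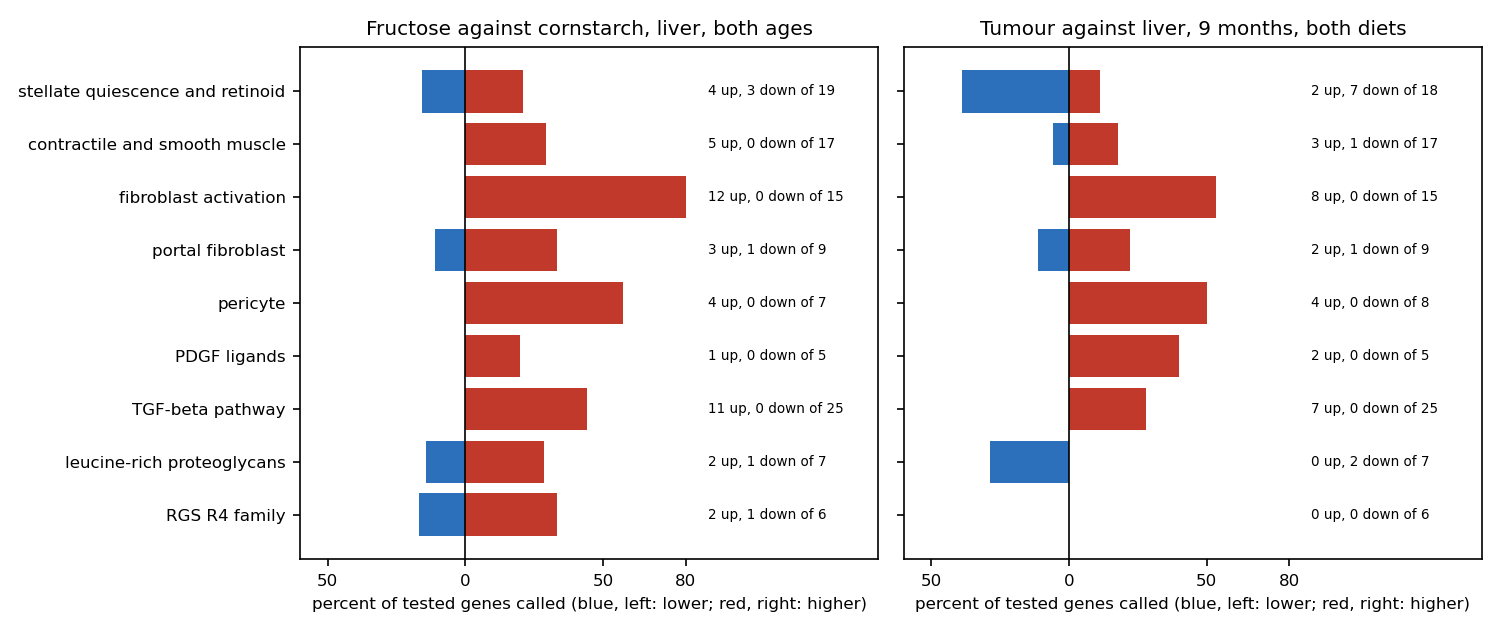
Share of the tested genes of each list that passed an adjusted p of 0.05, to the right for higher and to the left for lower, for fructose against cornstarch in liver over both ages (left panel) and tumour against liver at 9 months over both diets (right panel); the counts stand beside the bars. Of the fibroblast activation list 12 of 15 rose with fructose and 8 of 15 in tumours, and of the quiescence and retinoid list 7 of 18 fell in tumours.

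The 10 genes were last compared with all others in their pattern over the 16 libraries. Likeness was taken as the root mean square difference of centred log2(value + 1), over genes with a mean of at least 50, and is a description with no test. Libraries of 1 group share diet, age and tissue, so such likeness mostly repeats the differences between groups. Acta2 was most like Tagln (0.64), Myl9 (0.70) and Myh11 (0.71), all genes of smooth muscle contraction. Tagln was most like Fstl1 (0.41), Myl9 (0.41) and Arhgef10 (0.46). Dcn was most like Ntn1 (0.19), Bmp5 (0.27) and Pde7b (0.28), and Lrat most like Ctnnbip1 (0.37), Ntn1 (0.39) and Dcn (0.42).

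Pdgfra was most like Bgn (0.25), the proteoglycan biglycan, then Pde3a (0.27) and Agtrap (0.27). Pdgfrb was most like Sparc (0.27), Tgm2 (0.28) and Sgsh (0.28). Lum was most like Olfml3 (0.27), Cd37 (0.36) and Lpgat1 (0.38), of which Cd37 is a leukocyte gene. Tgfb1 had the closest match of all, Gng2 (0.15), then Tbc1d1 (0.20) and Adgre5 (0.21), a leukocyte receptor. Rgs5 was most like Sod3 (0.34), Qsox1 (0.36) and Colec11 (0.36), and Des most like Ednrb (0.28), Cmip (0.34) and Tbx20 (0.35). Among the 10 genes themselves the closest pair was Pdgfrb and Tgfb1 (0.39), followed by Pdgfra and Lum (0.41) and by Lrat and Dcn (0.42).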

How the data were processed

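Per the labels' protocols, RNA was isolated with NucleoSpin and libraries were made with TruSeq mRNA reagents. FastQC, Trim Galore, STAR, RSEM, DESeq2 and GRCm38 are named in the submitters' processing notes, without versions, settings or roles. The authors deposited 1 table of normalised counts (a signal per gene and library). Dividing by each library's step gave whole reads, within 0.01, for 100% of values above 0, so that the deposited signal values are counts divided by 1 factor per library. Labels carry no replicate numbers, so replicates were numbered in accession order. Names and coordinates came from GENCODE M21 (GRCm38).

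Log2(value + 1) was fitted with limma 3.58.1 (R 4.3.3), a mean per group and a variance trend, on the 11 livers or the 11 libraries of 9 months. Tested genes reached 10 in 2 or more libraries of the fit, with Benjamini-Hochberg adjustment over all and a threshold of 0.05. All 10 members passed the filter. Members, lists and tests were chosen with earlier results of these data known. Of each list the 3 genes with the smallest p were named, and for each member the 3 most alike; some named results are not reported here. Alternatives included edgeR 4.0.16 and DESeq2 1.42.0 on the recovered reads, and 1 library left out at a time. Where this left 1 library in a group, its spread was assumed to equal that of the rest. The fits were tested on simulated data.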

Additional observations from a re-analysis of the deposited data

How the results depend on the processing

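The 54 differences reported for the 10 genes kept their direction in each of their 1019 alternative values; 67 of these lost and 21 gained a call. The count of members past the threshold was 3 for diet at 9 months, and 1 with no filter, 7 with DESeq2, 0 with array weights, 1 in 1 fit of all 16 libraries, 0 without the libraries with Xist signal, and 0 to 2 without single libraries. At 5 months it was 5, and 3 in the fit of all 16, 3 without the Xist libraries, and 3 to 6 without single libraries. Over both ages it was 6, and 5 to 6 without single libraries. For age it was 1, and 2 with a pseudocount of 10, DESeq2 or array weights, 0 in the fit of all 16, 0 without the Xist libraries, and 0 to 2 without single libraries. For tumours over both diets it was 2, and 1 with no filter, quantile normalisation or edgeR, and 0 to 3 without single libraries. Under fructose it was 2, and 0 to 1 without single libraries; under cornstarch it was 0, and 2 with DESeq2, 1 in the fit of all 16 and 0 to 1 without single libraries. No paired analysis was possible because the labels carry no replicate numbers. Groups of 2 or 3 libraries limit the precision, and weakly expressed members rest on as few as 11 reads in a library.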
